A study of Rattus norvegicus with 70 samples.

Results

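The milk protein genes described here were 8 genes: the caseins Csn1s1, Csn2 and Csn3, the whey protein genes Wap and Lalba, the mucin-like Glycam1, and Btn1a1 and Xdh, whose products take part in milk fat secretion. They were chosen by name, and their NCBI gene numbers were matched to rat RefSeq symbols. All 8 were present among the 15319 genes of the 6 count tables. The series holds RNA from 3 fat depots of 24 Sprague-Dawley rats, an outbred laboratory stock: brown fat (BAT), subcutaneous fat (SAT) and visceral fat (VAT). The rats arrived at 28 days of age and inhaled through the nose, for 4 h a day over 28 days, either air passed over beads coated with PCB 52, a chlorinated biphenyl, or the sham exposure. Exposure began at 39 days of age in males and at 42 days in females, so sex and age at the start cannot be told apart. Even-numbered animals were female and odd-numbered animals male, 6 for each sex and treatment, and libraries with the same number were read as the same rat, which the labels do not state. The labels do not say from which subcutaneous or visceral pad tissue was taken. The 70 libraries formed 12 groups of 6, except female SAT sham and male VAT PCB 52 with 5 each.

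Milk protein genes are transcribed by the secretory luminal cells of the mammary epithelium, which in rats grows within subcutaneous fat. Prolactin acts on these cells through its receptor and JAK2 to activate STAT5, a transcription factor that binds a palindromic element in casein promoters, together with glucocorticoid receptor and the epithelial factor ELF5. Caseins form the micelles that carry calcium and phosphate, alpha-lactalbumin (Lalba) turns a galactosyltransferase into lactose synthase, and butyrophilin (Btn1a1) and xanthine dehydrogenase (Xdh) meet at the membrane that wraps milk fat droplets.

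The promoters of all 8 genes were found in the RefSeq promoter table of the GRCr8 assembly, a later build than the rn6 named in the submitters' processing notes. They were searched for TTCNNNGAA, the core of the STAT5-type element, which reads the same on both strands. It was present in 3 of the 8 promoters (250 bases before to 50 after the annotated start), and in 8.87% of 33469 promoters of the same length. A match is a description of the letters and not evidence of binding. The 250 bases before the start of these 3 genes are shown in lower case, 5' to 3' on the gene's strand, with the match in capitals. In Csn1s1 (chr14:20638850-20639099, minus strand) it began 100 bases before the start, in Csn2 (chr14:20601574-20601823, plus strand) 97 bases before, and in Glycam1 (chr7:136561300-136561549, minus strand) 175 bases before.
Csn1s1: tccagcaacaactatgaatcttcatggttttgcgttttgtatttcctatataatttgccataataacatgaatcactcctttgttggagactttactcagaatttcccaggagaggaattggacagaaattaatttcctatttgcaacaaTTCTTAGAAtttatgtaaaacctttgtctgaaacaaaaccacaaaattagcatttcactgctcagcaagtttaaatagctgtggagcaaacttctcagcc
Csn2: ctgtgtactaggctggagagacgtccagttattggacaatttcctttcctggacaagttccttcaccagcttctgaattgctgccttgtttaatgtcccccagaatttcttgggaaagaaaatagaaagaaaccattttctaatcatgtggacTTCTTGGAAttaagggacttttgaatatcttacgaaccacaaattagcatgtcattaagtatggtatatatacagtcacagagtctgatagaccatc
Glycam1: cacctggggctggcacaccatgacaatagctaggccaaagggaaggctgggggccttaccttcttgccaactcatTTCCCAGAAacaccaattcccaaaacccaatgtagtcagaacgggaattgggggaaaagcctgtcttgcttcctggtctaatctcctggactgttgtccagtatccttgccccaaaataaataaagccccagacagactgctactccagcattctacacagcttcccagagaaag
The elements themselves read TTCTTAGAA in Csn1s1, TTCTTGGAA in Csn2 and TTCCCAGAA in Glycam1. Csn1s1 and Csn2 lie in the casein cluster of chromosome 14 and are transcribed from opposite strands. The exact letters TATAAA were found in the 60 bases before the start in none of the 8 promoters and in 2.61% of all promoters. At that share, most sets of 8 promoters hold no match, and variants of the TATA element were not searched.

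Total counts per library ran from 4604116 to 9707132, and a level is given in CPM, the gene's count per 1000000 counts of the library. A count of 0 allowed up to 0.309 to 0.652 CPM (3 counts) in a single library, a limit that covers counting error only. Xist was at 114.2 to 1696 CPM in the 35 female libraries and at 0 to 7.14 CPM in the 35 male ones. The adipocyte marker Adipoq was present in every depot, at 302 to 6111 CPM in SAT, and the brown-fat marker Ucp1 was at 114 CPM or more in BAT, at 1.38 CPM or less in SAT and at 0 to 338 CPM in VAT, where female sham animals 4 and 8 held 338 and 229.5 CPM. The libraries treated as standing apart were 4: female BAT 24, female SAT 8, male SAT 19 and male VAT 13. The tests were also run without them, and no measure of the whole profile is given here for that choice. Ucp1 was 114 CPM in female BAT 24 against 3494 CPM or more in the other female BAT libraries. Esr1 was at 0 in female SAT 8 against 14.8 CPM or more in the other 10. Mup4, a preputial gland product, was at 51789 CPM in male SAT 19. Epcam was at 75.7 CPM in male VAT 13, but male VAT sham 11, not among these 4, held more (97.2 CPM).

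Outside SAT, 7 of the 8 genes were at or near 0, with Glycam1 in 2 VAT libraries as the exception. Csn1s1 had 0 counts in each of the 24 female BAT and VAT libraries; in the female sham BAT group this allowed at most 0.0899 CPM over the group (3 counts). The 11 female SAT libraries held 492 to 25007 CPM of this alpha-s1 casein, so the sham SAT group was at least 97205-fold higher than the sham BAT group (all counts of a group pooled, the BAT group at its floor). Csn2, encoding beta-casein, also had 0 counts in these 24 libraries, and its pooled level in female sham SAT was at least 46272-fold above the BAT floor. Csn3, encoding the kappa-casein of the micelle surface, had 18 counts in female sham BAT against 112312 in SAT, a 5657-fold ratio with a 95% exact Poisson interval of 3579 to 9545, which covers counting error only. Every library of SAT females therefore lay above every BAT and VAT library of either sex for the 3 caseins.

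The same contrast was seen in males, though not in each animal. Csn1s1 had 3 counts in the 12 male BAT libraries and 17 in the 11 male VAT libraries, against 0.548 to 213614 CPM in the 12 male SAT libraries. Csn2 was at least 16348-fold higher in pooled male sham SAT than in male sham BAT, where it had 0 counts. Because male SAT 9 and male SAT 21 were themselves near 0, the ranges of male SAT and the other depots met at the low end. Over the 8 genes together, members took 0.496% to 4.01% of all counts in female SAT (median 1.22%) and 0.0950% to 24.5% in male SAT (median 4.86%), against at most 0.0866% in BAT and 0.130% in VAT, where nearly all of it was Xdh.

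Small amounts of single genes were measured outside SAT. Btn1a1 was detected in most VAT libraries, at up to 1.86 CPM in females and 1.21 CPM in males, and had 0 counts in all 12 female BAT libraries. Glycam1 stood out in VAT of female sham animals 8 and 10, at 44.7 and 9.16 CPM, while the other 10 female VAT libraries were at 0.551 CPM or less. These were also the 2 female VAT libraries with B cell genes: Ms4a1 (encoding CD20) was at 23.7 and 41.8 CPM in them. Of 12 lymph node and venule markers 11 were in the tables, and their summed level was 39.9 to 458 CPM in female VAT sham and 38.4 to 131 CPM in female VAT PCB 52. Glycam1 is known from the high endothelial venules of lymph nodes as well as from milk, and the part of lymph node tissue in these 2 values was not tested. In male VAT, 13 of the 17 Csn1s1 counts came from PCB 52 animal 19. Csn1s2b, a related casein, was at 8.45 CPM in VAT of male PCB 52 animal 13 and at 5.87 CPM in male sham animal 11, the 2 male VAT libraries with the most Epcam (75.7 and 97.2 CPM), an epithelial adhesion gene.

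**Figure D1:**
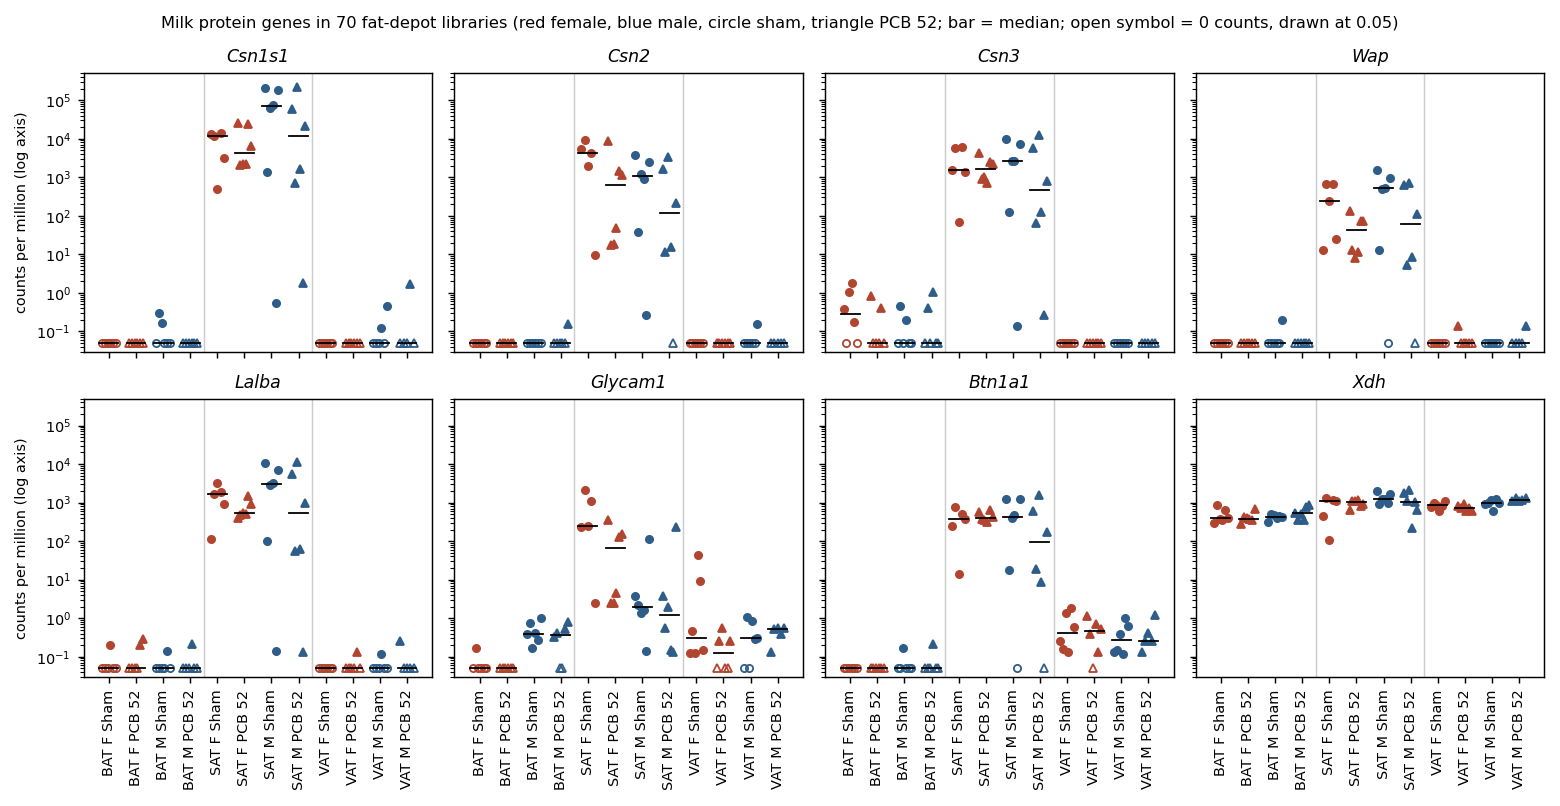
Level of each milk protein gene (CPM, log axis) in the 70 libraries by depot, sex and treatment, where F is female and M male; circles are sham, triangles PCB 52, bars medians, and open symbols libraries with 0 counts, drawn at 0.05. The caseins, Wap, Lalba and Btn1a1 are high in SAT and at or near 0 in BAT and VAT, while Xdh lies between 104 and 2165 CPM in every library.

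Xdh differed from the other 7 genes in being present throughout. It ran from 277 to 865 CPM in BAT, from 605 to 1298 CPM in VAT and from 104 to 2165 CPM in SAT. In male sham rats Xdh was 1330 ± 427 CPM in SAT (SD, n = 6) and 425 ± 65.1 CPM in BAT (n = 6), and the groups did not overlap. The log2 difference was 1.51 (SE 0.238; edgeR quasi-likelihood test, adjusted p = 0.000186), in a comparison in which 57.4% of genes were called. Xdh passed this test in none of the other 3 depot comparisons of sham rats. SAT over VAT in males gave 0.63 (SE 0.261, edgeR adjusted p = 0.122; 11.9% of genes called). In females, SAT over BAT gave 0.45 (SE 0.450, edgeR adjusted p = 0.463; 38.3% called) and SAT over VAT gave -0.24 (SE 0.420, edgeR adjusted p = 0.707; 30.7% called). The other 7 genes entered the female depot tests only through their SAT libraries, so their calls there are not given as support. In males they did not pass the expression filter, which needed counts in all 6 SAT libraries while animal 9 was at 0 to 0.548 CPM.

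Within female SAT the genes did not follow one common level. Csn1s1 in sham animals 2, 6, 8, 10 and 12 was 13122, 11842, 492, 14299 and 3248 CPM, and in PCB 52 animals 14, 16, 18, 20, 22 and 24 it was 25007, 2098, 2141, 2259, 24623 and 6291 CPM. Csn2 in the same order was 5274, 9231, 1933, 4353 and 9.74 CPM in sham and 8782, 17.4, 18, 49.3, 1431 and 1171 CPM in PCB 52 rats. Animals 12, 16, 18 and 20 thus held 9.74 to 49.3 CPM of beta-casein beside 2098 CPM or more of alpha-s1 casein, while the other 7 females held at least 1171 CPM of Csn2.

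Glycam1 split the female libraries the same way. It was 235, 2169, 242, 1079 and 2.44 CPM in sham animals 2, 6, 8, 10 and 12 and 347, 2.4, 2.48, 4.41, 129 and 148 CPM in PCB 52 animals 14, 16, 18, 20, 22 and 24. The 4 libraries at 4.41 CPM or less were the 4 with low Csn2, and the Spearman correlation of the 2 genes over the 11 female SAT libraries was 0.94 (a description; the libraries share depot and sex). The B cell gene Ms4a1 was at 0.741 CPM or less in all 11, and the summed level of 11 lymph node and venule markers was 220.2 to 908 CPM in sham and 264 to 934 CPM in PCB 52 females; its part in the Glycam1 values was not tested.

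Csn3 and Btn1a1 had 90.5-fold and 55.0-fold ranges across females, against 948-fold for Csn2 and 50.9-fold for Csn1s1. For Csn3, Btn1a1 and Csn1s1 the low end was the library of animal 8. Csn3 was 1522, 5739, 67.4, 6095 and 1344 CPM in sham animals 2, 6, 8, 10 and 12 and ran from 729.8 to 4204 CPM (median 1614) in PCB 52 rats. Btn1a1 was 253, 752, 13.7, 507 and 374 CPM in the same sham animals and 312 to 639 CPM (median 401) in PCB 52 rats. Without animal 8, Btn1a1 stayed between 253 and 752 CPM over the other 10 females, while Csn3 still ran from 729.8 to 6095 CPM.

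The whey genes followed another order. Lalba was 111, 1687, 3175, 1907 and 896 CPM in sham animals 2, 6, 8, 10 and 12, and 396 to 1499 CPM (median 529) in PCB 52 rats. Wap, a protease-inhibitor-like whey protein of rodents, was 12.9, 686, 235, 656 and 24.9 CPM in these sham animals and 8.23 to 131 CPM (median 42.9) in PCB 52 rats. Animal 8, lowest for Csn1s1, Csn3, Btn1a1 and Xdh, was the highest of the 11 females for Lalba, and animal 2 was the lowest for Lalba although its Csn1s1 was among the higher values.

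In male SAT the level changed from animal to animal by orders of magnitude, and 6 of the genes changed together. Csn1s1 in sham animals 1, 3, 5, 7, 9 and 11 was 205879, 1378, 63803, 75724, 0.548 and 180885 CPM. In PCB 52 animals 13, 15, 17, 19, 21 and 23 it was 58922, 711, 213614, 1633, 1.85 and 21358 CPM. Each treatment group thus spanned 5 orders of magnitude or more, and the groups overlapped over nearly their whole range. Csn2 in sham males was 3665, 38.4, 1188, 913, 0.274 and 2436 CPM, and in PCB 52 males 1607, 11.7, 3403, 15, 0 and 214 CPM. Csn3 ranged from 0.137 to 10098 CPM (median 2707) in sham and from 0.264 to 12319 CPM (median 453) in PCB 52 males. Animals 1, 11 and 17 were the 3 highest for each of the 3 caseins, and animals 9 and 21 the 2 lowest.

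Wap, Lalba and Btn1a1 placed the male animals alike. Wap was 0 to 1565 CPM (median 511) in sham males and 0 to 689 CPM (median 61.1) in PCB 52 males. Lalba was 0.137 to 10851 CPM (median 2997) in sham and 0.132 to 10985 CPM (median 524) in PCB 52 males. Btn1a1 was 0 to 1254 CPM (median 431) in sham and 0 to 1564 CPM (median 95.7) in PCB 52 males. For all 3 genes the lowest libraries were those of animals 9 and 21.

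Glycam1 did not. It was 3.81, 2.15, 1.36, 1.64, 0.137 and 116 CPM in sham males 1, 3, 5, 7, 9 and 11 and 3.83, 0.544, 1.92, 0.149, 0.132 and 229.8 CPM in PCB 52 males 13, 15, 17, 19, 21 and 23. The 10 libraries other than those of animals 11 and 23 were at 3.83 CPM or less, including animals 1 and 17, the highest for Csn1s1. Animals 11 and 23 were also those with B cell genes: Ms4a1 was at 60.1 and 113.5 CPM and Cr2 at 108.4 and 212.4 CPM, against at most 1.26 and 0.68 CPM in the other 10. The summed level of the 11 lymph node and high endothelial venule markers ran from 48.5 to 954.9 CPM in male SAT sham and from 53.6 to 2146 CPM in male SAT PCB 52, with animals 11 and 23 the highest. Chst4, a sulphotransferase of these venules, was at 1.17 CPM or less. The part of lymph node tissue in the male Glycam1 values was not tested.

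**Figure D2:**
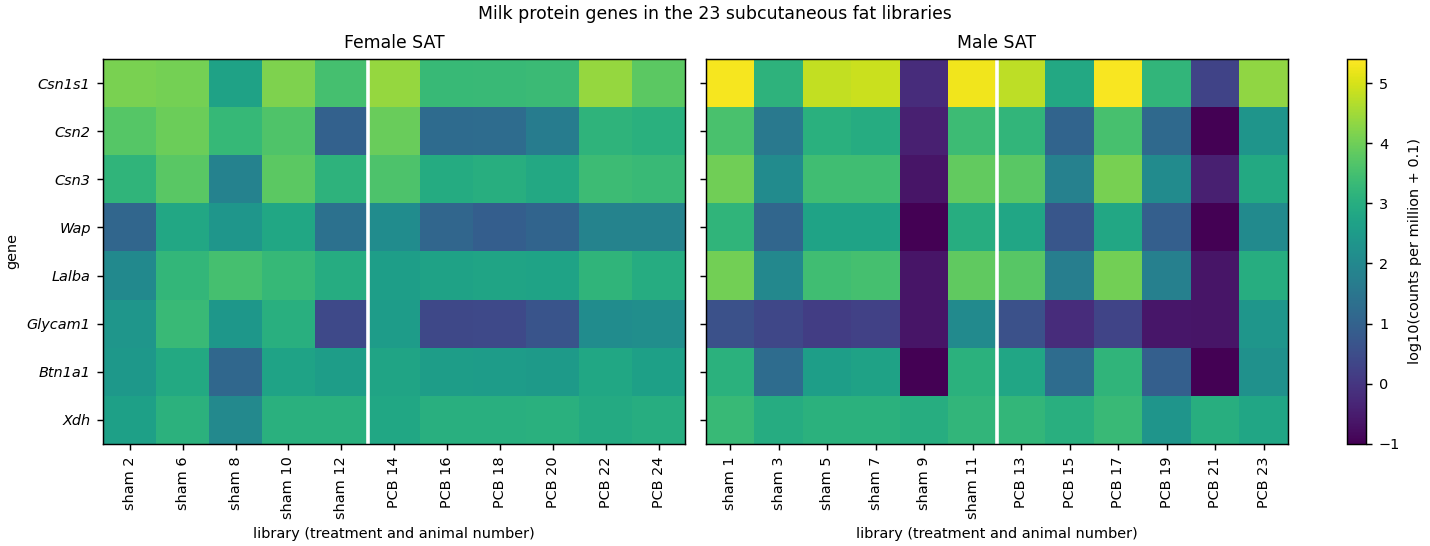
Heat map of log10(CPM + 0.1) of the 8 genes in the 11 female and 12 male SAT libraries, 1 column per library with treatment and animal number, sham to the left of the white line. Male columns are light or dark for 6 genes together, from animal 17 to animals 9 and 21, whereas in females 12, 16, 18 and 20 Csn2 and Glycam1 are dark while Csn1s1 and Btn1a1 are not.

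The proportions between the genes covered narrower ranges in males than in females for each of 7 ratios computed, though by little for 2 of them. None of the 7 included Glycam1 or Xdh, so the statement does not cover these genes. For Csn2 and Glycam1, Spearman's rho was 0.94 in females and 0.71 in males. The ratio of Csn1s1 to Csn2 counts lay between 35.9 and 108.6 (median 61.8) in the 10 male SAT libraries with at least 10 counts of both, a 3.03-fold range. In the 11 female libraries it lay between 0.254 and 333.5 (median 5.37), a 1311-fold range, or 260-fold without animal 8 (lowest 1.28). Csn3 over Lalba ran from 0.793 to 2.02 in males and from 0.0212 to 13.8 in females, where animal 8 alone set the low end and the range without it was 1.43 to 13.8. Csn2 over Csn3 covered a 3.60-fold range in males and a 3960-fold range in females, or 478-fold without animal 8. The 7 ranges of ratios without female 8 and male 19, a setting chosen after the data had been seen, were 4.76-fold to 478-fold in females and 1.57-fold to 3.42-fold in males. Csn1s1 over Csn3 was the most even of the 7 among females, from 2.06 to 9.82 (4.76-fold, against 2.68-fold in males), and none of its female values reached the lowest male value of 10.4. Btn1a1 over Csn3 covered a 5.14-fold range in females and a 3.90-fold range in males. The ratios are within libraries, so differences in transcript length do not enter the comparison between animals.

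Csn1s1 was correlated with the 7 other members on log2(CPM + 1) within each sex, 14 pairs in all, with p-values from 100000 permutations adjusted over the 14. In the 12 male SAT libraries Pearson's r with Csn3 was 0.99 and Spearman's rho 0.98 (permutation p = 1e-05 for each, the smallest the permutations can give; adjusted 2.8e-05 and 9.33e-05). With Lalba, Btn1a1, Csn2 and Wap, r was 0.99, 0.98, 0.97 and 0.96 (adjusted permutation p = 2.8e-05 each), and rho was 0.95 or higher. The 5 relations did not rest on the near-empty libraries, since without animals 9 and 21 every r was between 0.98 and 0.99 (n = 10). Glycam1 gave r = 0.48 and rho = 0.59 in males (adjusted permutation p = 0.123 and 0.0713). Xdh gave r = 0.38 (adjusted permutation p = 0.259) and rho = 0.75 (adjusted permutation p = 0.0143); without animals 9 and 21 r was 0.68.

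In the 11 female SAT libraries Csn1s1 followed Csn3 with r = 0.88 and rho = 0.85 (adjusted permutation p = 0.00077 and 0.00341), and r was 0.78 without animals 8 and 14, those farthest from the median of Csn1s1. With Btn1a1, r was 0.75 and rho 0.65 (adjusted permutation p = 0.00748 and 0.0588), and r was 0.54 without animals 8 and 14, so this relation rests partly on them. Csn2 gave r = 0.58 and rho = 0.60 (adjusted permutation p = 0.106 and 0.0797), and 0.89 without animals 8 and 14. Lalba gave r = -0.22 and rho = -0.12 (adjusted permutation p = 0.511 and 0.789), and without animals 8 and 14 the sign turned, to r = 0.28 and rho = 0.57. Wap, Glycam1 and Xdh gave r of 0.31, 0.54 and 0.41 (adjusted permutation p = 0.378, 0.123 and 0.259). Without animals 8 and 14 these were 0.66, 0.86 and -0.40, so the sign for Xdh turned as well. Whether the coefficients differed between the sexes was not tested.

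**Figure D3:**
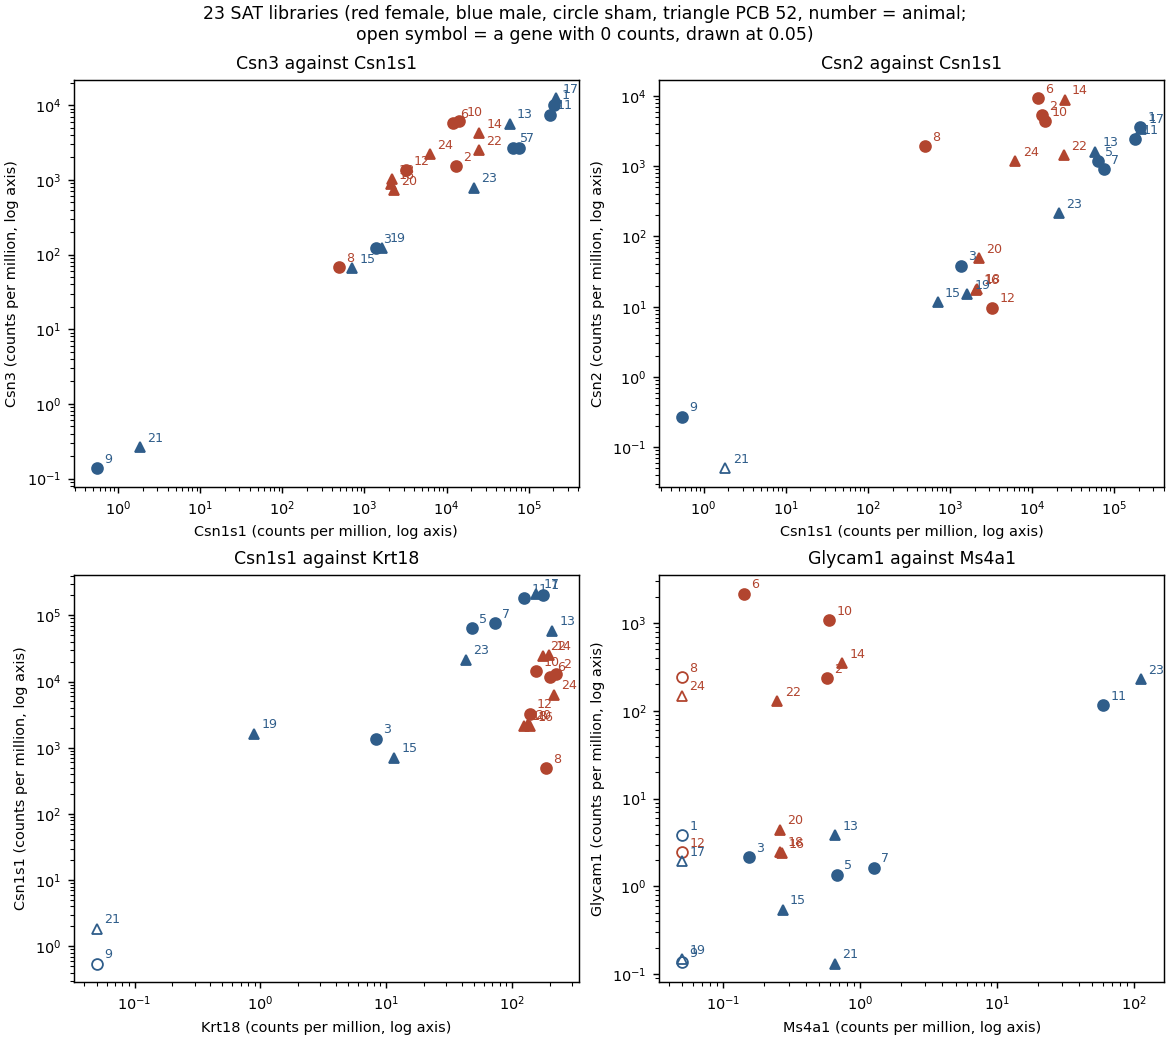
Pairs of genes across the 23 SAT libraries, both axes in CPM on log scales, with animal numbers beside the points (red female, blue male, circles sham, triangles PCB 52; open symbols have 0 counts of a gene, drawn at 0.05). Csn3 follows Csn1s1 in both sexes, Csn2 is low in females 12, 16, 18 and 20, female Krt18 is confined to 125 to 223 CPM, and Glycam1 of males 11 and 23 stands with Ms4a1 at 60.1 and 113.5 CPM.

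Markers of luminal epithelium were present in every female SAT library. Krt18, a luminal keratin, was at 125 to 223 CPM in female SAT and at 0 to 209 CPM in male SAT, with 0 counts in animals 9 and 21 and 0.893 CPM in animal 19. Of the 14 luminal markers 13 were in the tables. Their summed level ran from 1633 to 2450 CPM in female sham, 1535 to 2507 CPM in female PCB 52, 67.2 to 2710 CPM in male sham and 66.7 to 2766 CPM in male PCB 52 SAT. In BAT the sum was 68.9 CPM or less, and Krt18 was at 0.434 CPM or less. In VAT the sum was 78.5 to 219 CPM in females and 103 to 584 CPM in 9 of 11 males, but it reached 4909 CPM in male sham 11 and 3808 CPM in male PCB 52 animal 13, above every SAT library. Krt18 was at 92.3 and 73.1 CPM in these 2 VAT libraries, while Csn1s1, Csn2 and Csn3 were at 1.67 CPM or less in all male VAT libraries. Genes listed for seminal vesicle had a summed level of 0 to 146 CPM in male VAT sham. In male VAT PCB 52 it was 0 to 416 CPM, against 4.11 CPM or less in male SAT. The part of such tissue in the luminal sums of VAT was not tested. Across males, Krt18 and Csn1s1 had a Spearman rho of 0.86 (n = 12), and across females 0.45 (n = 11), both as descriptions over libraries of 1 depot. Other luminal genes differed in females, with rho to Csn1s1 of 0.90 for Cldn3, 0.66 for Krt8 and 0.04 for Epcam (0.97, 0.88 and 0.69 in males). High coefficients were not limited to luminal genes. The basal keratins Krt5 and Krt14 had rho to Csn1s1 of 0.77 and 0.55 in females and 0.71 and 0.67 in males. Krt14 had a rho to Csn2 of 0.94 in females and 0.64 in males. The adipocyte markers Adipoq and Plin1 ran the other way, with rho to Csn1s1 of -0.83 and -0.36 in females and -0.66 and -0.68 in males. This did not hold for every member in females, where Adipoq had a rho of 0.01 with Lalba. Plin1 had a rho of -0.03 with Btn1a1 and 0.49 with Xdh there. In males both markers had negative values with every member. The other listed adipocyte markers were not correlated. In bulk tissue, fewer cells of a type and less RNA per cell cannot be told apart, and the part of the epithelial or adipocyte share in the milk protein levels was not tested. Male SAT 19 carried Epcam at 399 CPM and Krt14, a basal keratin, at 2163 CPM, beside its 51789 CPM of Mup4.

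Regulators of lactation were measured in the same libraries. Elf5 was at 117 to 337 CPM in female SAT and 0.132 to 515 CPM in male SAT, and it had a rho of 0.94 with Csn2 in females and 0.99 in males, but of 0.16 with Lalba in females. The rho of Csn2 in females was 0.41 with Stat5a, -0.12 with Prlr, -0.17 with Esr1 and -0.65 with Pgr. In males it was 0.90, 0.85, -0.52 and 0.37. The other members differed from Csn2 in females. Their rho with Stat5a ran from 0.20 (Lalba) to 0.76 (Csn3 and Btn1a1), with 0.72 for Csn1s1. Their rho with Pgr ran from -0.59 (Glycam1) to 0.66 (Xdh). Prlr, the prolactin receptor, was at 1.49 to 34.5 CPM in female and 0.821 to 17.3 CPM in male SAT. Pgr, the progesterone receptor, was at 6.22 to 79.4 CPM in females and at 2.23 CPM or less in males. Tnfsf11 (RANKL), a paracrine signal downstream of progesterone, was at 79.7 and 73.2 CPM in females 2 and 14, at 5.25 CPM or less in the other 9, and at 10.2 and 24.2 CPM in males 11 and 23. Oxtr, the oxytocin receptor, which drives milk ejection in myoepithelium, was not particular to SAT: it was at 641 to 2127 CPM in female and 499.7 to 965 CPM in male VAT, and at 3.85 to 501 CPM in BAT. In SAT it was at 439 to 723 CPM in females 12, 16, 18 and 20 and at 151 to 333 CPM in the other 7; these last values were picked out after the Csn2 values had been seen and carry no test.

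For each gene, the 5 genes with the highest mean of the female and male Spearman rho over the SAT libraries were named, among 11360 genes tested in both sexes. Csn1s1 was nearest to Slc5a1, a sodium-coupled glucose transporter (rho 0.95 in females, 0.98 in males), followed by Dnajc6, Rap1gap, Pgm3 and the claudin Cldn3. Csn2 was nearest to Elf5, then the claudin Cldn10, the mucin Muc1, Csn1s2a and Spint2. Csn3 was nearest to Dhrs11, then Csn1s2b, Sox10, Aldoc and Cldn8. Wap was nearest to Atp13a4 (0.85 and 1.00), then Cracr2b, Sat1, Csn1s2a and Wfdc3. Lalba was nearest to Scgb2a1, then Mpg, Clta, Pdzk1ip1 and Wap. Glycam1 was nearest to Plac8, then Muc1, Csn2, Nepro and Elf5. Btn1a1 was nearest to Ngef (0.94 and 0.97), then Ints12, the lipid droplet coat gene Plin2, the glycerol kinase gene Gk and Aldoc. Xdh was nearest to Sgms1, then Rasl10a, Garre1, Eef2k and the sorting receptor gene Sort1; none of its 5 was a listed milk protein. With 11 and 12 libraries many genes reach high coefficients, and these are ranks, not tests.

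The RefSeq order from Csn3 to Csn1s1 on chromosome 14 holds 11 genes, of which 9 were in the tables. In SAT, Csn1s2a reached 4775 CPM in males and 564 CPM in females, and Csn1s2b reached 364 and 75.4 CPM. Csn1s2a, like Csn2, was low in females 12, 16, 18 and 20, at 4.58, 0.534, 1.05 and 3.63 CPM, against 55.9 to 564 CPM in the other 7, whereas Csn1s2b was at 22.5 to 38.3 CPM in these 4 and at 22.3 to 75.4 CPM in the other 7. The genes lying among the caseins were close to 0 in SAT: Odam was at 7.09 CPM or less, Fdcsp at 4.21, Dzip1-ps1 at 3.33 and Stath at 0.563. All 5 caseins of the cluster were at 0 in each of the 12 female VAT libraries.

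Male and female sham SAT were then compared. None of the 8 genes passed the test (edgeR, adjusted p under 0.05), in a comparison in which 1.09% of 11626 genes were called, and 2277 genes had an unadjusted p under 0.05. The 127 calls became 563 without female animal 8 and 15 without male animal 5. Csn1s1 was 87945 ± 87757 CPM in males (SD, n = 6) and 8601 ± 6281 CPM in females (n = 5); the log2 difference of 3.68 had an SE of 1.74 (edgeR adjusted p = 0.267; 4 of 6 males above the female mean). Glycam1 was 20.8 ± 46.6 CPM in males and 745 ± 895 CPM in females, a log2 difference of -4.96 (SE 1.72, edgeR adjusted p = 0.162; 0 of 6 males above the female mean). Without male animal 11, which carried the B cell genes, that difference was -8.45 with an adjusted p of 0.0328, and DESeq2 on all libraries gave -4.93 with an adjusted p of 0.0198. Over all alternatives the adjusted p of Glycam1 ran from 0.0198 to 0.289. Csn2 gave -1.37 (SE 1.48) and Csn3 0.72 (SE 1.45), with edgeR adjusted p of 0.632 and 0.813. Wap, Lalba, Btn1a1 and Xdh gave 1.03, 1.21, 0.88 and 0.95, with edgeR adjusted p from 0.286 to 0.739. In the other depots only Xdh could be tested between the sexes: the male minus female log2 difference was -0.14 in sham BAT (SE 0.218, edgeR adjusted p = 0.937), where 0.0652% of genes were called, and 0.10 in sham VAT (SE 0.181, edgeR adjusted p = 0.755), where 11.5% were called.

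Among the listed regulators 3 of the 18 tested were lower in male than in female sham SAT and none was higher: the epidermal growth factor ligand gene Areg (log2 difference -5.60, SE 0.770, edgeR adjusted p = 0.0104), Pgr (-5.32, SE 0.770, adjusted p = 0.0137) and Wnt4 (-2.68, SE 0.483, adjusted p = 0.0245). The list's median was 0.01, against -0.02 over all genes. Of the 11 other milk protein genes tested none was called, with a median of 1.64. In the list for milk lipid and lactose synthesis, 1 of 19 was called, the lipogenic regulator Thrsp (1.73, SE 0.351, edgeR adjusted p = 0.0395), with a median of 0.76. Of the 13 luminal markers 1 was lower, Prom1 (-3.60, SE 0.380, edgeR adjusted p = 0.0017), and 12 of 13 values were below 0. Of the 10 basal and myoepithelial markers 2 were lower, Krt17 (-3.42, SE 0.679) and Lgals7 (-6.68, SE 1.34), both with an edgeR adjusted p of 0.0375. Markers of other cells were tested in the same comparison. All 7 endothelial markers had values above 0 (median 0.81), of which Eng passed (1.35, SE 0.243, edgeR adjusted p = 0.0237). The 8 adipocyte markers had a median of 1.60 with 6 above 0 and none called, and of 3 brown adipocyte markers Cidea was higher in males (2.45, SE 0.298, edgeR adjusted p = 0.00408). Their part in the differences between the sexes was not tested. Areg, Pgr, Prom1 and Cidea were called in all 11 fits that each left out 1 library. Eng lost its call without female 6 or male 3, 5, 7 or 9 (edgeR adjusted p up to 0.0769, without male 5) and with plain library totals (edgeR adjusted p = 0.0857). Wnt4 lost its call without female 2 or 6 or male 5, 7 or 9 (edgeR adjusted p up to 0.0809, without male 5), and Thrsp without female 2, 6, 10 or 12 or male 1, 3, 5, 7 or 9 (up to 0.105, without male 7). Krt17 lost its call without female 2, 6 or 10 or male 1, 3, 5, 7 or 9, and Lgals7 without female 6 or male 1, 3, 5, 7, 9 or 11 (edgeR adjusted p up to 0.11 for both, without male 5). Without female 8 the Lgals7 difference was -3.5 (edgeR adjusted p = 0.00943).

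The question the series poses is the effect of PCB 52, which was tested against sham separately for each sex in each depot. In SAT none of the 8 genes passed the test in either sex, where 0% of 11824 genes were called in females and 0% of 11459 in males. At an unadjusted p under 0.05 there were 605 and 165 genes, and DESeq2 also called 0 in each. In female SAT, Wap was 323 ± 330 CPM in sham (SD, n = 5) and 51.6 ± 49.4 CPM in PCB 52 rats (n = 6). Its log2 difference of -2.91 (SE 1.05) had the smallest p of the 8 genes (edgeR adjusted p = 0.768, from 0.545 to 1 over the alternatives), and 0 of 6 PCB 52 libraries were above the sham mean. The groups overlapped, since sham animals 2 and 12 held 12.9 and 24.9 CPM.

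Glycam1 was 745 ± 895 CPM in female sham and 106 ± 136 CPM in female PCB 52 SAT, a log2 difference of -2.98 (SE 1.47, edgeR adjusted p = 0.768). Lalba was 1555 ± 1149 CPM in sham and 725 ± 418 CPM in PCB 52 rats, a log2 difference of -1.65 (SE 0.740, edgeR adjusted p = 0.768). Without sham animal 8, the highest for Lalba, the difference was -0.71, and without PCB 52 animal 22 it was -1.95. For both genes 0 of 6 PCB 52 libraries lay above the sham mean. The groups overlapped for both, since sham animal 2 held 111 CPM of Lalba and sham animal 12 held 2.44 CPM of Glycam1. Csn2 gave -1.32 (SE 1.54) and Csn3 -0.68 (SE 0.773), both with an edgeR adjusted p of 0.903. Leaving out PCB 52 animal 14 gave -3.12 for Csn2 and -1.05 for Csn3, the lowest values over single omissions; the highest were -0.90 for Csn2, when sham animal 6 was omitted, and -0.22 for Csn3, when sham animal 10 was. Csn1s1, Btn1a1 and Xdh gave 0.18, 0.16 and 0.14, with SEs of 0.859, 0.563 and 0.423, and without animal 8 they gave -0.099, -0.13 and -0.099.

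In male SAT the standard errors of 7 of the genes were 1.70 to 1.97 on the log2 scale, so differences of a few fold could not be resolved for them. Csn1s1 was 87945 ± 87757 CPM in sham (SD, n = 6) and 49373 ± 83589 CPM in PCB 52 males (n = 6), a log2 difference of -0.75 (SE 1.97, edgeR adjusted p = 1 when rounded); it was -2.64 without PCB 52 animal 17 and -0.23 without sham animal 1. The other 6 ranged from -1.33 (Wap, SE 1.71) to 0.59 (Glycam1, SE 1.76), and Xdh gave -0.23 (SE 0.496). The Glycam1 value was 4.07 without sham animal 11 and -3.97 without PCB 52 animal 23, the 2 animals with B cell genes. The difference in effect between the sexes was tested as an interaction over the 23 SAT libraries: none of the 8 genes passed, where 0% of 12157 genes were called and 792 had an unadjusted p under 0.05. The largest was Glycam1 at 3.55 (SE 2.39, edgeR adjusted p = 0.874).

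**Figure D4:**
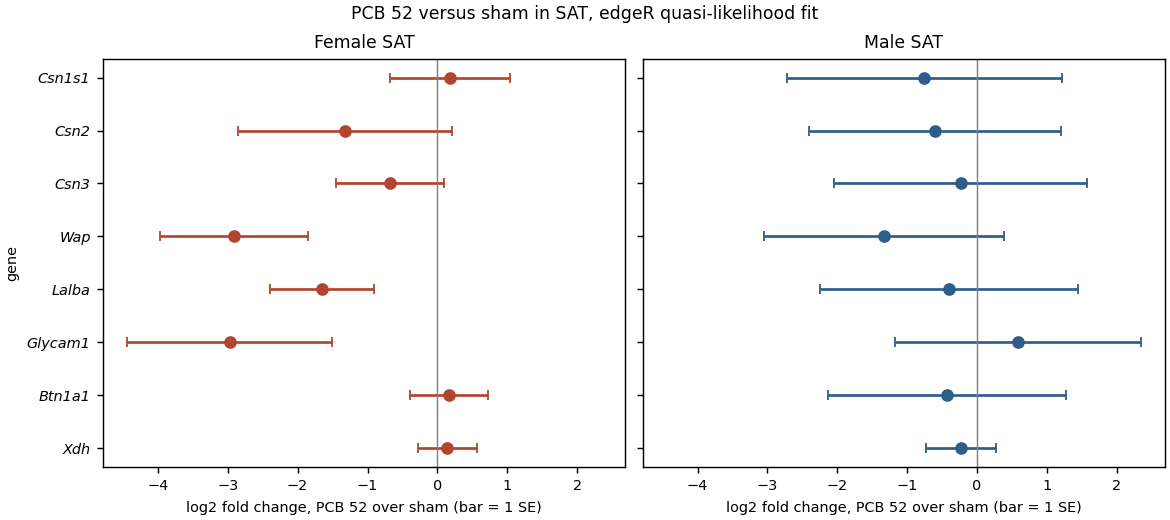
Log2 fold change of PCB 52 over sham for the 8 genes in female and male SAT from the edgeR fit, with bars of 1 standard error. Female values run from -2.98 (Glycam1) to 0.18 (Csn1s1) and male values from -1.33 (Wap) to 0.59 (Glycam1), and none passed the adjusted threshold.

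The residual spread of the genes was large in this depot. In male SAT the SD of log2 CPM around the group means was 6.54 for Csn1s1, the highest of 11459 genes, and 4.70 to 5.57 for Csn2, Csn3, Wap, Lalba and Btn1a1, all within the 9 most variable genes, against a median of 0.463 over all genes. In female SAT it was 3.91 for Csn2 and 3.5 for Glycam1, the 7th and 14th of 11824 genes, and 1.28 to 2.24 for Csn1s1, Csn3, Wap, Lalba and Btn1a1, against a median of 0.562. Xdh was 0.814 in females and 0.970 in males.

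None of the other listed genes of milk secretion was called in SAT. In female SAT 0 of 11 tested milk protein genes outside the 8 passed, all 11 with values below 0 and a median of -0.67 against 0.01 over all genes; the smallest p belonged to Muc1 (-1.03, SE 0.465, edgeR adjusted p = 0.768) and Pigr (-1.58, SE 0.793, adjusted p = 0.768). Of the 19 regulators tested 0 passed, with Elf5 (-0.68, SE 0.303) and the growth hormone receptor gene Ghr (0.72, SE 0.394) having the smallest p (edgeR adjusted p = 0.768 each). The 13 luminal markers had a median of -0.34 with 11 below 0, and 0 passed. In male SAT 0 of 11 milk protein genes outside the 8 and 0 of 17 regulators passed, with medians of -0.40 and -0.21 against 0.03 over all genes.

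In BAT and VAT Xdh was the only member with enough counts to test, and it passed in none of the 4 comparisons, where 0% of genes were called in each. In female BAT it was 488 ± 222 CPM in sham and 414 ± 132 CPM in PCB 52 rats (log2 difference -0.25, SE 0.253, edgeR adjusted p = 0.999). In male BAT it was 425 ± 65.1 and 565 ± 209 CPM (0.33, SE 0.196, edgeR adjusted p = 0.55). In female VAT it was 857 ± 164 and 729.7 ± 115 CPM (-0.20, SE 0.155, edgeR adjusted p = 0.661), and in male VAT 988 ± 223 and 1188 ± 99.3 CPM (0.25, SE 0.158, edgeR adjusted p = 0.747, n = 5 for PCB 52). DESeq2 called 14 genes in male BAT, 37 in female VAT and 2 in male VAT, and Xdh was not past its threshold in any. The interaction of sex and treatment on Xdh was 0.44 in VAT (SE 0.220, edgeR adjusted p = 0.468) and 0.56 in BAT (SE 0.330, edgeR adjusted p = 1 when rounded), where 0% of 11664 and of 11032 genes were called. Of the 8 tested genes listed for purine breakdown and salvage, pathways around Xdh, 0 passed in each of these 4 comparisons.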

How the data were processed

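The members and gene lists were chosen with earlier results of these data known. Per the labels' protocols, about 100 mg of tissue was lysed, and only RNA of integrity number 8 or more was kept; poly(A) capture or rRNA removal is named without saying which was used. The submitters' processing notes name FastQC, HISAT2 and rn6. No source used here gives versions, the counting program, the annotation or the use of strand, so the values of overlapping and antisense genes, and of near-identical casein copies, are uncertain. Gene counts, whole numbers, were deposited by the authors in 6 tables. The female VAT table was handled as estimated counts as deposited, because 5 spreadsheet lines follow its genes; those lines were dropped, and the rest hold whole numbers. No per-sample column was left unused. Of 15319 genes, 15230 matched RefSeq symbols (GRCr8).

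CPM is the count over the plain library total. The test was that of edgeR 4.0.16 (R 4.3.3, TMM, default expression filter, robust quasi-likelihood F test, Benjamini-Hochberg over all genes tested, threshold 0.05), with only the groups compared in each fit; SE is the log2 fold change over the root of F. Nothing says how tissue pieces were divided, so p-values measure the spread between these libraries. Correlations used log2(CPM + 1) and permutations (scipy 1.17.1). Of 170 library pairs within groups 0 were identical, and none was merged. Equal animal numbers were read as the same rat from the titles; in 22 same-numbered pairs, the median correlation of the deviations from the group mean was 0.112, and 11 exceeded 0.1. On simulated counts, 4-fold changes were recovered for 62% of changed genes in female SAT (11824 genes) and 85% in male SAT (11459 genes), and 2-fold changes for 6% and 23%. The changed genes were 200 among all those tested, so these shares do not describe the milk protein genes. Their spread was above the median gene in SAT of both sexes. In male SAT the SD of log2 CPM was 6.54 for Csn1s1, against a median of 0.463.

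Named genes were the 8 members in every comparison, up to 4 called members of each list in order of p or the 2 of smallest p where none passed, the 5 nearest patterns, the RefSeq neighbours between Csn3 and Csn1s1, and marker genes. Not every gene that this rule takes is printed. Genes with values per library beyond that rule, among them Oxtr, Tnfsf11, Mup4 and Esr1, were picked out after their values were seen. Alternatives were DESeq2 1.42.0, no expression filter, plain totals, DESeq2 size factors, scaling without milk protein genes, the replicate block, leaving out each library and leaving out the 4 libraries that stand apart.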

Additional observations from a re-analysis of the deposited data

Results flagged for a closer look

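Of 43 combinations of gene and group with at least 10 counts in some library, 5 had a library separated from the rest by more than the 95% limit of Dixon's gap test on log2(CPM + 1); chance gives about 1 in 20. The score is the gap to the nearest library over the group's whole range. The chance rate does not hold for a group with 0 in all libraries but 1, where the score is always 1.

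Csn2 in female SAT sham animal 12 was at 9.74 CPM, with the other 4 sham libraries at 1933 to 9231 CPM (score 0.769). Btn1a1 in female SAT sham animal 8 was at 13.7 CPM, with the others at 253 to 752 CPM (score 0.724). This is the library in which Csn1s1, Csn3 and Xdh were also lowest and Lalba highest.

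Glycam1 was high in 1 library of each male SAT group. In sham animal 11 it was at 116 CPM, with the others at 0.137 to 3.81 CPM (score 0.689), and in PCB 52 animal 23 it was at 229.8 CPM, with the others at 0.132 to 3.83 CPM (score 0.727). Ms4a1 was at 60.1 and 113.5 CPM in these 2 libraries; its part in the Glycam1 values was not tested. Csn1s1 in male VAT PCB 52 animal 19 was at 1.67 CPM, with 0 in the other 4 (score 1). With 0 in all the others the score is 1 by construction, so it does not measure separation here. The group entered the test only through the 13 counts of this library.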

How the results depend on the processing

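The count of genes called moved by more than 1.5 times under the following settings; the cause was not tested. With DESeq2, PCB 52 against sham called 14 genes in male BAT, 37 in female VAT and 2 in male VAT, and the sex by treatment interaction in VAT 11, where edgeR called 0 in each. DESeq2 called 66 genes between male and female sham BAT (7 with edgeR), 925 in SAT (127) and 2286 between male SAT and VAT (1342). Plain library totals gave 331 genes for the sexes in SAT. Without the libraries that stand apart, 563 genes differed between the sexes in SAT, 6700 between female SAT and BAT (4348) and 5860 between female SAT and VAT (3544). With the replicate block, 1935 genes differed between female SAT and VAT. The totals of the other depot comparisons stayed within 1.5 times under the block, and no call of a member changed.

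Without those libraries the sign turned, with no call before or after, for the PCB 52 difference in female SAT of Csn1s1 (-0.099), Btn1a1 (-0.13) and Xdh (-0.099) and in male SAT of Csn3 (0.019), for the interaction of Xdh in SAT (0.092) and for Xdh between female SAT and VAT (0.0012). Glycam1 between the sexes in SAT passed with DESeq2 (-4.93, adjusted p = 0.0198) and without male sham 11 (-8.45, edgeR adjusted p = 0.0328); the other member calls kept their side of the threshold in every setting run.

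Leaving out single libraries gave 0 to 1 genes for PCB 52 in male BAT (1 without PCB 52 animal 19), 0 to 3 for the interaction in VAT (3 without male sham 1), and for the sexes 5 to 9 in BAT, 15 (without male sham 5) to 563 (without female sham 8) in SAT and 844 (without male sham 5) to 1633 in VAT. It gave 3599 to 6700 and 5817 to 6444 between SAT and BAT in females and males, and 2803 to 5860 (without female SAT 8) and 738 (without male VAT 5) to 1906 between SAT and VAT. Log2 differences whose sign turned ran, for PCB 52 in female SAT, from -0.28 to 0.47 for Csn1s1, -0.13 to 0.56 for Btn1a1 and -0.099 to 0.34 for Xdh. In male SAT they ran from -2.10 to 0.071 for Csn2, -1.74 to 0.41 for Csn3, -1.81 to 0.29 for Lalba, -2.0 to 0.052 for Btn1a1 and -3.97 to 4.07 for Glycam1. The interaction in SAT ran from -0.78 to 2.50 for Csn2, -1.06 to 1.10 for Csn3, -0.20 to 1.90 for Lalba and -1.03 to 7.05 for Glycam1. Xdh ran from -0.27 to 0.059 between the sexes in BAT and from -0.44 to 0.0012 between female SAT and VAT. Of the other member tests, 353 under other settings and 750 with 1 library left out kept direction and side of the threshold. In BAT and VAT a count of 0 allows up to 0.652 CPM, so lower levels of the 7 genes other than Xdh were not detectable there.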

Other observations

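Other products of the secreting mammary cell were measured in the same SAT libraries. Olah, the thioesterase that ends fatty acid synthesis at medium chain length in lactating mammary cells, was at 378 to 3007 CPM in female SAT and 0.659 to 5660 CPM in male SAT, and at 0.780 CPM or less in all BAT and VAT libraries. Its lowest male values were in animals 9 and 21, at 1.23 and 0.659 CPM. The water channel gene Aqp5 was at 29.5 to 392 CPM in female and 0 to 42.7 CPM in male SAT. Stat5a, the prolactin-activated transcription factor gene, was present in every depot, at 47.1 to 543 CPM in male and 97.0 to 294 CPM in female SAT.

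Male SAT 19 held a separate combination. Lao1, the L-amino acid oxidase of rodent milk, was at 355 CPM there and at 119.7 CPM or less in the other 22 SAT libraries, and Olah was at 2119 CPM. In the same library Csn1s1 was at 1633 CPM, Krt18 at 0.893 CPM, Krt14 at 2163 CPM and Mup4 at 51789 CPM. These genes were picked out after their values were seen.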
